A study of Mus musculus with 12 samples.

Results

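The matrix proteases and their inhibitors were examined here as 4 gene families in mouse liver: the matrix metalloproteinases (Mmp), the tissue inhibitors of metalloproteinases (Timp), the ADAMTS proteases and the ADAMTS-like proteins (Adamtsl). Every protein-coding gene whose symbol followed the naming pattern of a family was taken, which gave 50 genes of the 56205 in the count table: 22 Mmp, 4 Timp, 19 Adamts and 5 Adamtsl genes. A gene was counted as detected when at least 6 of the 12 libraries held 10 or more counts. This left 32 detected genes, namely 13 Mmp, 3 Timp, 12 Adamts and 4 Adamtsl genes, and all 32 also passed the low-count filter of the test.

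The livers came from male ob/ob mice (B6.Cg-Lep ob/J), a strain in which every animal of both groups lacks functional leptin and becomes obese. The OBOB_FLO group (FLO) of 6 mice was kept on standard chow, and the OBOB_Fibrotic group (fibrotic) of 6 mice received chow and ethionine, an ethyl analogue of methionine. The sources disagree on the dosing: the labels give 0.165% DL-ethionine in drinking water for 2 weeks and, elsewhere, an injection of 0.15%, whereas the study's methods give 0.15% in drinking water for 1 week, starting at 8 to 10 weeks of age. Whole-liver poly(A) RNA was sequenced, 1 library a mouse, and each value below comes from that mixture of cell types.

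Matrix metalloproteinases are zinc-dependent enzymes made as inactive precursors. Some are secreted and others are held at the cell surface, and between them they cut collagens, gelatin, elastin, laminins and many non-matrix proteins. TIMPs bind the active site of these enzymes and block it, with Timp3 also acting on several ADAMTS enzymes. ADAMTS proteases trim procollagens, cleave proteoglycans or process von Willebrand factor, while ADAMTS-like proteins share the ancillary domains but have no protease domain. In liver these genes are known mostly from stellate cells, macrophages, endothelial cells and bile duct cells, with a smaller set made by hepatocytes.

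Total counts per library lay between 17815568 and 24814263. All 10 hepatocyte markers passed the low-count filter, with summed levels of 61875 to 97707 CPM (counts scaled to a common, normalised library size) in fibrotic and 86063 to 100215 CPM in FLO libraries. Of these, Cps1 and Fgb were called higher and Apoa1, Serpina1a and Ass1 lower. FLO replicate 3 held 3773 Xist and 4 Ddx3y counts, a female pattern against the stated male sex, and the 5 calls described next were also made without it. Between the groups, 15.9% of all 13416 tested genes were called higher and 14.0% were called lower in fibrotic livers, a call being an adjusted p of 0.01 or less with a log2 fold change beyond 0.5 (edgeR quasi-likelihood test, Benjamini-Hochberg adjustment).

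To see which matrix proteases and inhibitors differed between the groups, each member was read from that fit over all genes. Mmp27, Mmp7, Adamts15, Mmp15 and Mmp24 were higher in fibrotic livers, by 2.26-fold to 7.51-fold, and no inhibitor was called. Mmp27 was detected only through the group where it is high. The 5 called members of 32 stood beside a background of 15.9% of all genes, so the count itself did not set the families apart. None of the 32 was called lower by edgeR, beside a background of 14.0%. At an unadjusted p under 0.05, 5 members were lower and 7 were higher, limma-voom also called 0 members lower, and DESeq2 called 1 lower (Mmp14). The median log2 fold change of the 32 was 0.08, against 0.03 over all tested genes. The groups did not overlap for the same number of members, 5 higher and 0 lower, where 15.3% and 15.1% of all genes did so in those directions. As in any whole-tissue comparison, more RNA per cell and more cells of a type could not be told apart.

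**Figure D1:**
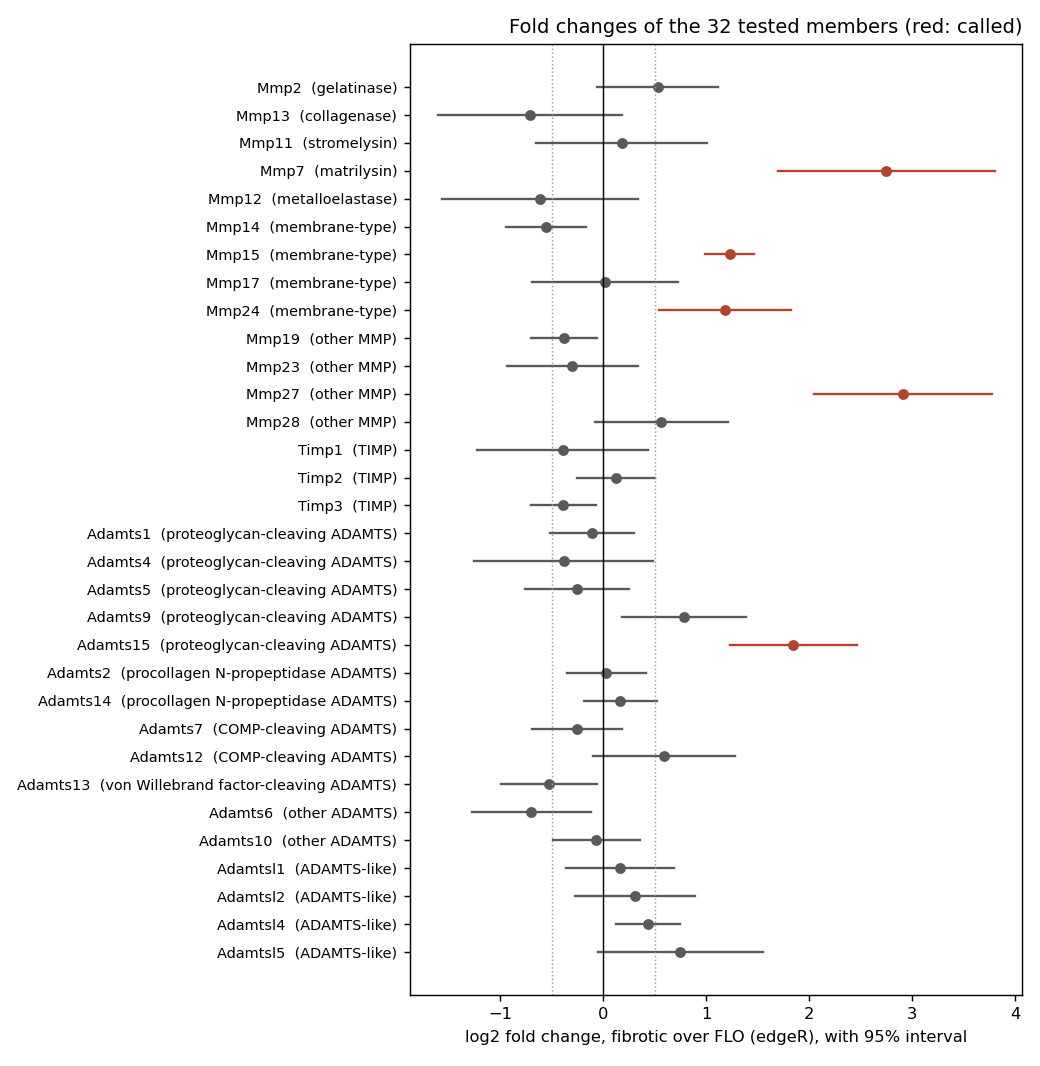
Log2 fold change (x axis, fibrotic over FLO) of each of the 32 tested members (y axis, with its role), with 95% intervals from edgeR; red marks the 5 called genes and dotted lines mark the fold limit of 0.5 in either direction. Mmp27 at 2.91 and Mmp7 at 2.75 lie farthest from 0, and Mmp15 at 1.23 has the narrowest interval of the called genes.

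Of the membrane-type enzymes, which act at the cell surface, Mmp15 (MT2-MMP, chr8:95352268-95375080) had by far the most counts. It stood at 107, 126 and 169 CPM (lowest, median, highest) in fibrotic libraries and at 48.4, 57.3 and 59.2 CPM in FLO libraries. The groups were far apart, and FLO libraries were tightly bunched. The log2 fold change was 1.23 (SE 0.11, adjusted p = 4.87e-07, edgeR), from 56.0 ± 4.08 CPM (SD, n = 6) in FLO to 131 ± 24.6 CPM (SD, n = 6) in fibrotic livers. Every fibrotic library, 6 of 6, was above the highest FLO library. Mmp15 rested on 954 to 3366 counts a library and its log2 fold change stayed between 1.15 and 1.29 under every alternative tried.

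Mmp24 (MT5-MMP, chr2:155775342-155818366), another membrane-type enzyme, is best known from neurons. Its libraries ran from 2.24 through a median of 2.80 to 3.98 CPM in fibrotic and from 0.517 through 1.33 to 2.03 CPM in FLO livers. The highest FLO library came close to the lowest fibrotic library without reaching it. The log2 fold change was 1.18 (SE 0.30, adjusted p = 0.00412, edgeR), and the call was lost without fibrotic replicate 1 (adjusted p = 0.0114) or without FLO replicate 1 (adjusted p = 0.0104). Exons of Mmp24 overlap those of BC029722 on the opposite strand, which held 658 to 945 counts in fibrotic against 326 to 435 in FLO libraries, against 9 to 82 for Mmp24. BC029722 was itself called higher, at a log2 fold change of 1.12 (adjusted p = 9.58e-08, edgeR). The study's methods name a library kit that keeps strand, but they do not say whether counting used it for these libraries, so reads of both genes may be mixed and the Mmp24 value is uncertain.

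The other membrane-type members were not called. Mmp14 (MT1-MMP), the activator of pro-Mmp2 and a collagenase in its own right, stood at 11.7, 13.5 and 22.6 CPM in fibrotic and at 17.4, 22.4 and 31.6 CPM in FLO libraries. The groups overlapped, although 4 of 6 fibrotic libraries lay below the lowest FLO library. On the log2 scale the fold change was -0.55 (SE 0.18, adjusted p = 0.0191, edgeR), which missed the threshold. It passed with DESeq2 (adjusted p = 0.00676) and, by edgeR, without fibrotic replicate 4 (adjusted p = 0.00349). Without FLO replicate 3, the library with the highest Mmp14 level, it was -0.44 (adjusted p = 0.0471, edgeR), inside the fold limit. Mmp17 (MT4-MMP), attached through a lipid anchor, was near 0.82 CPM in fibrotic and 0.80 CPM in FLO livers, with an interval of -0.69 to 0.73 on the log2 scale. Mmp16 and Mmp25 were not detected, with at most 2 counts in any library.

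**Figure D2:**
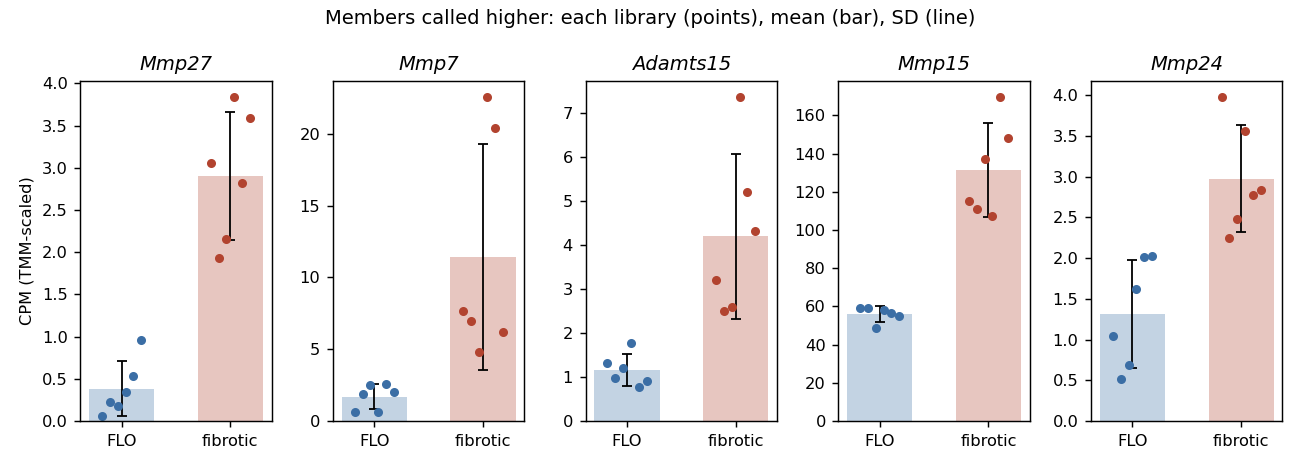
Level in CPM (y axis, starting at 0, a scale of its own for each gene) of the 5 called members in the 6 FLO and 6 fibrotic livers; points are libraries, bars are means and lines are SDs. No fibrotic point lies at or below a FLO point, and for Mmp7 the fibrotic points split into 2 libraries above 20 CPM and 4 below 8 CPM.

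Mmp27 and Mmp7 lie in the cluster of Mmp genes on chromosome 9, where 9 members occupy 427 kb. Mmp27 (chr9:7571396-7581885), a little-studied member with a stromelysin-like domain layout, was at 1 to 19 counts in FLO and 38 to 82 counts in fibrotic libraries. In CPM this was 0.055, 0.286 and 0.965 in FLO against 1.94, 2.94 and 3.84 in fibrotic libraries. The groups were clearly separated, from a FLO level close to the limit of detection. Mmp27 met the detection rule through the fibrotic group, since 6 of 6 fibrotic libraries but only 1 of 6 FLO libraries held 10 or more counts, so its detection was not independent of the difference. Its fold change, 2.91 on the log2 scale (SE 0.41, adjusted p = 2.72e-05, edgeR), ranged from 2.69 to 3.44 over the alternatives.

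Mmp7 (matrilysin, chr9:7692090-7699585) lacks the hemopexin domain of most relatives and is known from epithelia, including bile ducts. It stood at 4.80, 7.30 and 22.6 CPM in fibrotic and at 0.602, 1.96 and 2.55 CPM in FLO libraries. Fibrotic replicates 4 and 5 were far above the other fibrotic libraries, and all 6 exceeded the highest FLO library. The log2 fold change was 2.75 (SE 0.49, adjusted p = 0.000400, edgeR), and it stayed between 2.44 and 2.91 when any library was left out or any other setting was used. Cholangiocyte markers moved in the same direction: 5 of the 8 tested were called higher (Epcam, Sox9, Spp1, Cldn4 and Cldn7), beside 15.9% of all tested genes. The summed level of the list was 98.6 to 305 CPM in fibrotic and 60.3 to 103 CPM in FLO libraries. DESeq2 called 7 of these markers higher and limma-voom called 3. Spp1 is also on the activated stellate list and was not called without FLO replicate 3. That fit still called 5 cholangiocyte markers higher. The same fibrotic replicates, 4 and 5, had the highest cholangiocyte sums (214 and 305 CPM). Their part in the Mmp7 result was not tested.

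The other detected cluster members had lower mean levels in fibrotic livers and were not called. Mmp12 (macrophage metalloelastase) had 2.14, 4.72 and 7.47 CPM in fibrotic and 2.01, 7.88 and 15.1 CPM in FLO libraries. FLO livers were widely scattered and covered the whole fibrotic range. The interval of its log2 fold change ran from -1.57 to 0.34 (adjusted p = 0.266, edgeR). Kupffer cell markers were called higher in 7 of 9 cases, beside 15.9% of all tested genes. Their sums were 285 to 573 CPM in fibrotic and 240 to 277 CPM in FLO libraries. Infiltrating macrophage markers were called higher in 3 of 10 cases, with sums of 80.6 to 212 against 49.3 to 106 CPM. The relation of either list to the Mmp12 level was not tested. Mmp13, the main interstitial collagenase of rodents, was at 0.810 ± 0.454 CPM (SD, n = 6) for fibrotic against 1.35 ± 0.748 CPM (SD, n = 6) in FLO livers, at an adjusted p of 0.167 (edgeR). Mmp1b and Mmp20 had 0 counts in every library, Mmp10 had at most 1, Mmp8 at most 7 and Mmp3 at most 11.

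**Figure D3:**
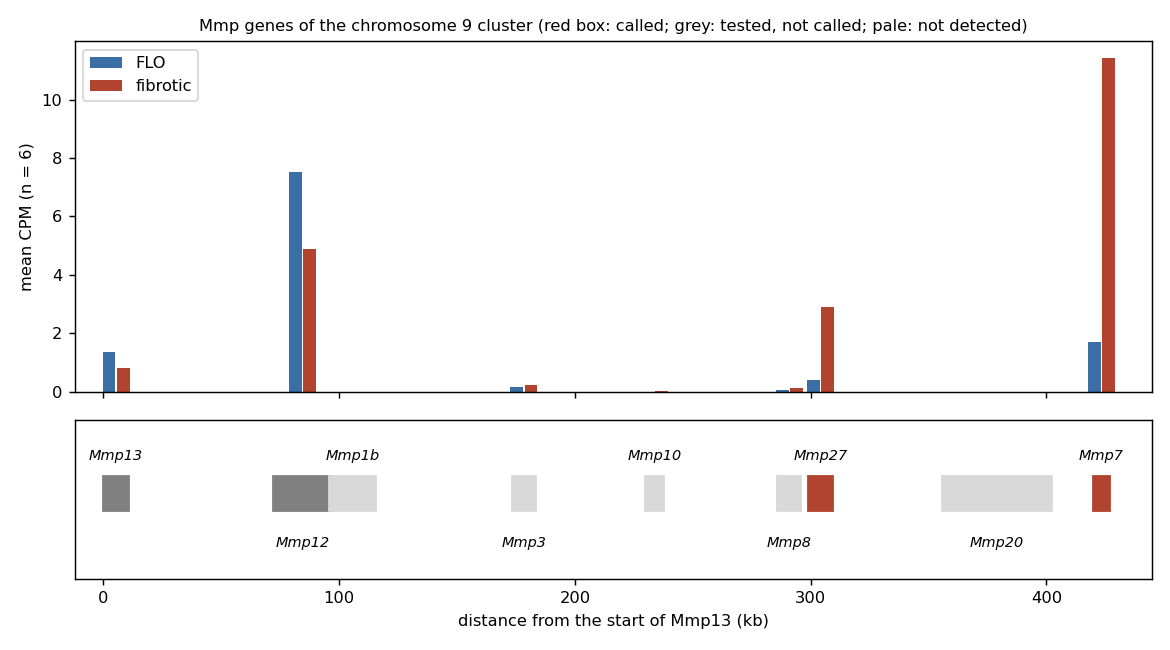
Mean CPM (upper y axis, n = 6 a group) of the 9 members of the chromosome 9 cluster, drawn by distance in kb from the start of Mmp13 (x axis), above boxes for the genes. Mmp27 and Mmp7 (red) were called higher, Mmp13 and Mmp12 (grey) were tested and not called, and the 5 pale genes were not detected.

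The promoters of the 4 detected cluster genes are shown with that of Mmp15, to set the called genes beside their uncalled neighbours. Each sequence holds the 250 bases before a RefSeq start on GRCm38.p6, written 5′ to 3′ on the strand of the gene, with capitals for matches to TGANTCA (the AP-1 motif) and TATAAA (the TATA motif), and for Mmp12 the downstream of its 2 RefSeq starts is printed.
Mmp13 (chr9:7272264-7272513, + strand): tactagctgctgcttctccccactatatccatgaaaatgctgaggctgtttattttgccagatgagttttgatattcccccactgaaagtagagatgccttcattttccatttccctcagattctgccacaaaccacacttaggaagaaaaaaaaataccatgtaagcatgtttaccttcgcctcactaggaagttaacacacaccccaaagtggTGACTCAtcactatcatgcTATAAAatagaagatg
Mmp12 (chr9:7347124-7347373, + strand): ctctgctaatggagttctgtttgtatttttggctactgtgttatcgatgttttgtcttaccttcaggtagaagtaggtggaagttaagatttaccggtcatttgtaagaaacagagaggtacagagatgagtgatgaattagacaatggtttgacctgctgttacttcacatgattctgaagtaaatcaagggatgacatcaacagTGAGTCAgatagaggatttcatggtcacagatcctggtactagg
Mmp27 (chr9:7571146-7571395, + strand): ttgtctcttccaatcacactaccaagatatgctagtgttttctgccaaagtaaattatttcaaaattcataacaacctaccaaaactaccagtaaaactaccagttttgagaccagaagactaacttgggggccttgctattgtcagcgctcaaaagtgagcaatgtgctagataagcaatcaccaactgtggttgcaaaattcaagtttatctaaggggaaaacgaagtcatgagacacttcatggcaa
Mmp7 (chr9:7691840-7692089, + strand): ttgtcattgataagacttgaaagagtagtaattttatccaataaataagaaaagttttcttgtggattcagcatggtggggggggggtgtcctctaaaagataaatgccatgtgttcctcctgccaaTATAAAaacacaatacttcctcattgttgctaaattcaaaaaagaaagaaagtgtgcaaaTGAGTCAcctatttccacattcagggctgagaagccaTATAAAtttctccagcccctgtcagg
Mmp15 (chr8:95352046-95352295, + strand): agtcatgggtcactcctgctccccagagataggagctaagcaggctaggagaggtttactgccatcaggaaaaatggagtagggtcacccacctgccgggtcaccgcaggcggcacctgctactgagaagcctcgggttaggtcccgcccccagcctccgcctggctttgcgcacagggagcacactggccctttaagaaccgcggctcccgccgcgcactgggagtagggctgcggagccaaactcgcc
The AP-1 letters, searched on both strands, occurred in 6.75% of all 32851 windows of this length, and the TATA letters in 12.4%. Among 38 windows of members, 7 held the AP-1 letters, and all 7 belonged to genes of the chromosome 9 cluster (Mmp1b, Mmp3, Mmp7, Mmp10, Mmp12, Mmp13 and Mmp20). The other Mmp12 window (chr9:7344147-7344396), at the upstream start, and a second Mmp7 window (chr9:7692091-7692340), at the downstream start, held neither motif. For both genes the printed window is therefore the one with a match. The printed Mmp12 window lies inside the gene as placed by GENCODE M21 (chr9:7344381-7369499), not before its first base. In the printed windows, the match in Mmp7 began 63 bases upstream of the start, that in Mmp12 44 bases and that in Mmp13 35 bases. Mmp27 and Mmp15 held neither motif in this window. Within the cluster, Mmp7 (called) and Mmp13 (not called) each had a window with an AP-1 and a TATA match, while Mmp27 (called) carried none. The part of these letters in the levels was not tested.

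The remaining metalloproteinases were not called. Mmp2 (gelatinase A), which degrades denatured collagen and basement membrane collagen, had 3.50, 5.51 and 11.2 CPM in fibrotic and 3.12, 4.19 and 6.55 CPM in FLO libraries. Most libraries of both groups shared a common range, and the log2 fold change was 0.53 (interval -0.06 to 1.12, adjusted p = 0.122, edgeR). Mmp19, a secreted enzyme with basement membrane substrates, stood at 51.5 ± 9.62 CPM (SD, n = 6) for fibrotic against 66.9 ± 14.6 CPM (SD, n = 6) in FLO livers (log2 fold change -0.38, adjusted p = 0.0460, edgeR). Mmp11 (stromelysin 3), Mmp23 and Mmp28 (epilysin) had log2 fold changes of 0.18, -0.30 and 0.57, each with an interval that held 0. Exons of Mmp11 overlap Chchd10 on the other strand, whose 13090 to 33585 counts exceed the 4 to 19 of Mmp11, so that value is uncertain as well. Mmp21 was not detected.

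Mmp9 (gelatinase B), stored in neutrophil granules and also made by macrophages, fell short of detection. It had 4, 10.5 and 30 counts in fibrotic and 1, 3.5 and 6 counts in FLO libraries. Fibrotic replicates 3 and 6 were no higher than the highest FLO libraries. The difference in mean log2 CPM (prior count of 2) was 1.19, which is given as a description because the gene was below the detection rule and the value was added after its counts were seen. With no low-count filter edgeR gave a log2 fold change of 1.68 (adjusted p = 0.0125), past the threshold for DESeq2 only (adjusted p = 0.00825). Of 10 neutrophil markers 8 were too low to test, with at most 32 counts, and 1 of the 2 tested, the receptor gene Csf3r, was called higher (log2 fold change 0.71, adjusted p = 0.00891, edgeR). DESeq2 also called it, but limma-voom and the fit without FLO replicate 3 did not. The list sum was 3.29 to 8.14 CPM in fibrotic and 2.19 to 6.04 CPM in FLO libraries. The part of neutrophils in the Mmp9 counts was not tested.

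Per kb of exon length, which allows genes to be compared with each other, the order of the most abundant members differed between the groups. Mmp19 ranked first in FLO livers at 18.9 CPM per kb and Mmp15 came next at 10.4. In fibrotic livers Mmp15 ranked first at 24.3 CPM per kb, followed by Mmp19 at 14.6 and Mmp7 at 10.7. The ratio of the Mmp15 to the Mmp19 level was 0.391 to 0.745 in FLO and 1.25 to 2.19 in fibrotic libraries, so Mmp15 was above Mmp19 in 6 of 6 fibrotic livers and in 0 of 6 FLO livers. In fibrotic livers the level of Mmp7 (10.7 ± 7.37 CPM per kb, SD, n = 6) spread over the level of Mmp19 (14.6 ± 2.72, SD, n = 6), so their order was within the spread between libraries. Timp2, Timp3 and Mmp14 followed in both groups at 2.62 to 5.38 CPM per kb, with Adamts1 between them and Mmp14 in fibrotic livers at 2.77.

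**Figure D4:**
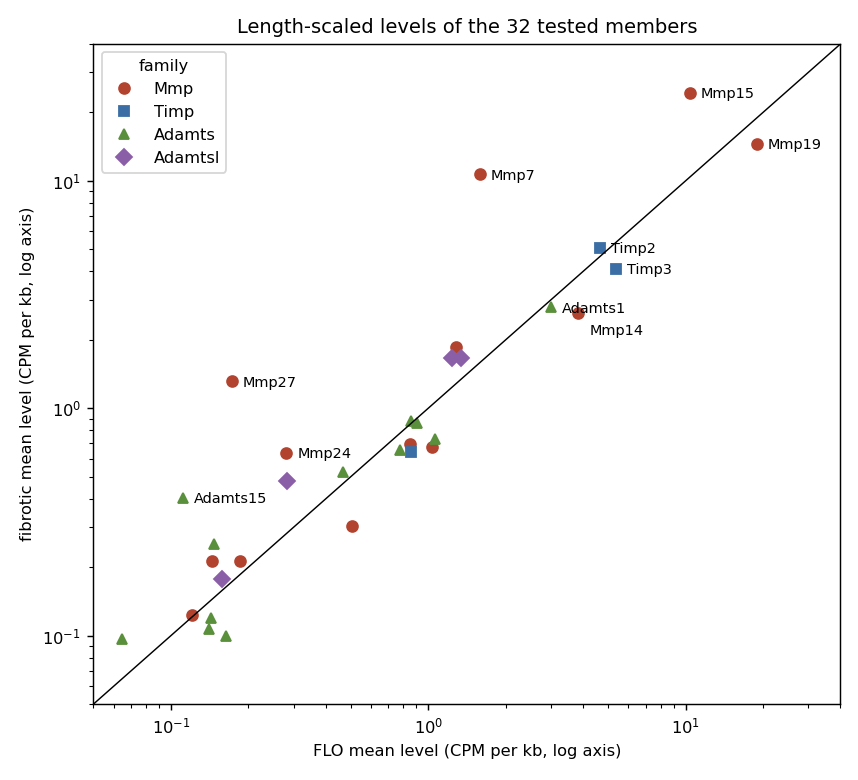
Mean level per kb of exon (CPM per kb, log axes, n = 6 a group) of the 32 tested members, FLO on the x axis and fibrotic on the y axis, with the line of equal levels. Mmp15, Mmp7, Mmp27, Mmp24 and Adamts15 lie above the line, and Mmp19, the highest in FLO livers at 18.9, lies below it.

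Summed over the 13 detected Mmp genes, the level was 39.3 ± 3.18 CPM per kb (SD, n = 6) in FLO and 58.3 ± 10.9 CPM per kb (SD, n = 6) in fibrotic livers. This sum is given as a description. Mmp19 made up 47.7 ± 7.17% of it (SD, n = 6) in FLO and 25.6 ± 6.47% (SD, n = 6) in fibrotic livers. Mmp15 went from 26.6 ± 3.27% (SD, n = 6) to 42.3 ± 7.0% (SD, n = 6), and Mmp7 from 4.08 ± 2.17% (SD, n = 6) to 17.3 ± 9.15% (SD, n = 6). Mmp7 reached its greatest share, 31.8%, in fibrotic replicate 4. The summed level of the 3 detected Timp genes was 10.9 ± 1.45 (SD, n = 6) against 9.84 ± 2.698 CPM per kb (SD, n = 6), and that of the 12 Adamts genes was 7.83 ± 1.06 (SD, n = 6) against 7.50 ± 1.11 CPM per kb (SD, n = 6), FLO first.

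**Figure D5:**
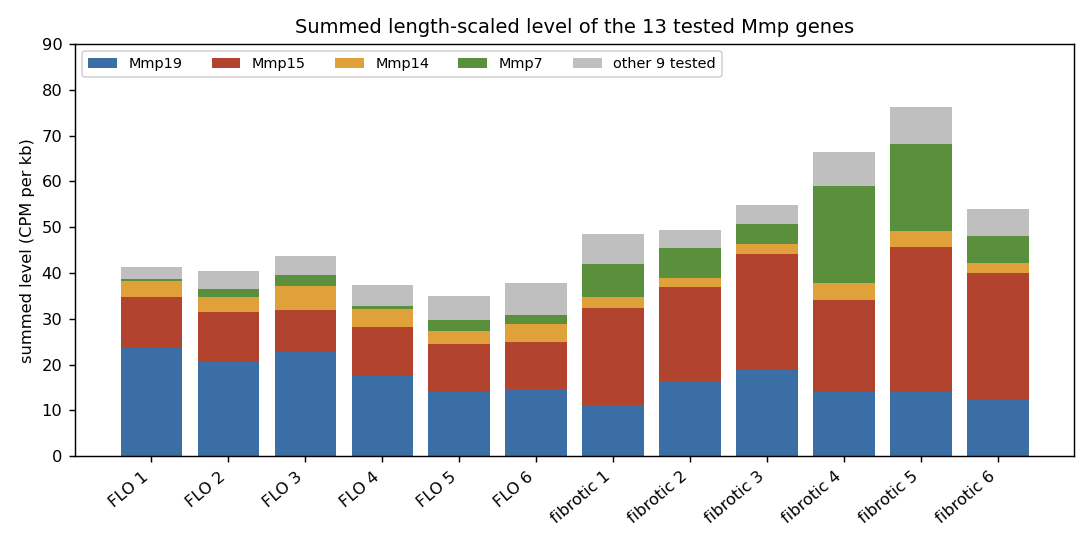
Summed level of the 13 tested Mmp genes (y axis, CPM per kb of exon) in each of the 12 livers (x axis), split into Mmp19, Mmp15, Mmp14, Mmp7 and the other 9. FLO sums run from 34.9 to 43.8 and fibrotic sums from 48.5 to 76.3, and the Mmp15 block exceeds the Mmp19 block in every fibrotic library and in no FLO library.

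No inhibitor of the TIMP family was called in either direction by edgeR. Timp1, widely used as a marker of liver fibrosis, had 3, 12 and 19 counts in fibrotic and 8, 13.5 and 28 counts in FLO libraries. In CPM it stood at 0.573 ± 0.261 (SD, n = 6) against 0.760 ± 0.374 (SD, n = 6), with the fibrotic libraries inside or below the FLO range. Its log2 fold change was -0.39 with an interval of -1.23 to 0.44 (adjusted p = 0.418, edgeR), so at this depth a rise beyond that upper bound lay outside the interval while smaller changes were not detectable.

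Timp2, which also takes part in the activation of pro-Mmp2 by Mmp14, stood at 13.5, 17.7 and 31.2 CPM in fibrotic and at 14.5, 17.4 and 21.5 CPM in FLO libraries. The medians nearly coincided, and the interval of the log2 fold change was -0.25 to 0.50 (adjusted p = 0.582, edgeR). Timp3, the matrix-bound inhibitor, stood at 25.2, 32.7 and 46.1 CPM in fibrotic and at 31.4, 47.3 and 51.1 CPM in FLO libraries. All 6 fibrotic libraries lay below the FLO median and the ranges overlapped, with a log2 fold change of -0.39 that missed the call (SE 0.15, adjusted p = 0.0382, edgeR). Timp4 was not detected, with 0 to 10 counts in fibrotic against 0 to 5 in FLO libraries.

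Of the ADAMTS enzymes that cleave proteoglycans such as versican and aggrecan, Adamts15 (chr9:30899155-30922452) was called. It stood at 2.50, 3.75 and 7.35 CPM in fibrotic and at 0.770, 1.09 and 1.76 CPM in FLO libraries. The groups did not overlap, and fibrotic replicate 4 was the highest. The log2 fold change was 1.85 (SE 0.29, adjusted p = 8.41e-05, edgeR) and stayed between 1.62 and 2.00 under the alternatives. Adamts9, which has the same type of substrate, had a log2 fold change equal to 0.79 (SE 0.28, adjusted p = 0.0288, edgeR). It was called when fibrotic replicate 3 was left out (adjusted p = 0.00518, edgeR). Over all fits without a library it was 0.50 to 0.94, with an adjusted p of up to 0.0764 (edgeR). With limma-voom the adjusted p was 0.0834. Adamts1, Adamts4 and Adamts5, the other detected enzymes of this kind, had log2 fold changes of -0.11, -0.38 and -0.26 with intervals that held 0. The Adamts4 value rests on 3 to 23 counts a library and is uncertain. Adamts20, with the same class of substrates, had 0 counts, and Adamts8 had at most 3.

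Adamts2, the main enzyme that removes the amino-terminal propeptide of fibrillar procollagens, stood at 5.20, 8.04 and 12.4 CPM in fibrotic and at 6.51, 7.76 and 10.005 CPM in FLO libraries. The fibrotic range enclosed the FLO range. Its log2 fold change was 0.03 with an interval of -0.35 to 0.41 (adjusted p = 0.899, edgeR), and that of its relative Adamts14 was 0.17 with an interval of -0.18 to 0.52. Adamts3, which shares this role, had at most 12 counts.

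Adamts13, which cuts von Willebrand factor and is made largely by stellate cells in liver, stood at 3.62 ± 1.14 CPM (SD, n = 6) for fibrotic against 5.21 ± 1.01 CPM (SD, n = 6) in FLO livers. All 6 fibrotic libraries were below the FLO median, and the log2 fold change of -0.53 did not pass (SE 0.22, adjusted p = 0.0541, edgeR). Adamts6 was similar, with -0.70 on the log2 scale (SE 0.27, adjusted p = 0.0409, edgeR) on 10 to 31 counts a library. Adamts7 and Adamts12, which cleave cartilage oligomeric matrix protein, had log2 fold changes of -0.26 and 0.59, and Adamts10, linked to fibrillin microfibrils, had -0.07. None of these 3 was called. Adamts16, Adamts17, Adamts18 and Adamts19 were not detected.

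The ADAMTS-like proteins had no call, although the 4 detected genes all had positive log2 fold changes. Adamtsl2, which binds fibrillin and the latent TGF-beta binding protein, stood at 6.37, 12.3 and 25.0 CPM in fibrotic and at 8.32, 9.98 and 13.8 CPM in FLO libraries. Fibrotic livers lay on both sides of the FLO range. The log2 fold change was 0.31 with an interval of -0.28 to 0.89 (adjusted p = 0.363, edgeR), and it was 0.04 without fibrotic replicate 5. Adamtsl4, a fibrillin-associated protein, had 0.44 (adjusted p = 0.0191, edgeR), Adamtsl5 had 0.75 (adjusted p = 0.106) and Adamtsl1 had 0.16 (adjusted p = 0.613). Adamtsl3 was not detected, with at most 21 counts.

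The variation among members was also uneven between livers. Within the fibrotic group, replicates 4 and 5 each held the highest value for 11 of the 32 members and replicate 2 held the lowest for 12. Within the FLO group, replicate 6 held the highest value for 14 and replicate 1 the lowest for 15. The median coefficient of variation of a member was 32.2% in fibrotic and 27.0% in FLO livers.

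Other genes that act on the same enzymes or substrates were read from lists. Their counts of calls stand beside 15.9% of all tested genes called higher and 14.0% called lower. Among 12 tested activators and other inhibitors of the proteases, 7 were lower and 1 was higher in fibrotic livers, with a median log2 fold change of -0.67, against 0.03 over all genes. The lower genes were Pcsk5 (-0.79) and Pcsk6 (-1.02), proprotein convertases, Tmprss6 (-0.54), a hepatocyte serine protease that controls hepcidin, Reck (-0.87), a membrane-anchored inhibitor of metalloproteinases, Pzp (-1.49) and Mug1 (-2.39), plasma protease traps, and Tfpi2 (-1.16), a Kunitz-type inhibitor. Reck lost its call in 7 alternatives, among them the replicate block (adjusted p = 0.0120) and the fits without fibrotic replicates 1, 3 or 6 or FLO replicates 1 or 2. Tmprss6 was inside the fold limit without fibrotic replicate 4 (-0.48), and Mug1 belongs to a family of close copies between which reads can be shared. The higher gene was St14 (matriptase), an epithelial serine protease, at 10.8 ± 6.61 CPM (SD, n = 6) for fibrotic against 1.49 ± 0.440 CPM (SD, n = 6) in FLO livers (log2 fold change 2.84, SE 0.42, adjusted p = 8.81e-05, edgeR).

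In the plasminogen system, 1 of 8 tested genes was higher and 0 were lower by edgeR, with 2 lower at an unadjusted p under 0.05 and 1 lower by DESeq2 and by limma-voom. The higher gene was Plat, the tissue plasminogen activator, at a log2 fold change of 1.72 (adjusted p = 0.00783, edgeR), and it lost its call in 11 of 24 alternatives, reaching an adjusted p of 0.0677 with the replicate block. Of the single libraries, leaving out fibrotic replicates 1, 4 or 5 or FLO replicates 1, 2, 4, 5 or 6 each ended the Plat call (adjusted p at most 0.0197). Plg, the precursor of plasmin, did not overlap between groups (881 to 1341 CPM in fibrotic and 1405 to 1711 CPM in FLO livers) but its log2 fold change of -0.49 was inside the fold limit. Among 10 tested genes of the ADAM family, Adam12 (1.69) and Adam10 (0.53) were higher and Adam11 (-1.98) and Adam9 (-0.76) were lower. Only some members of this family cut proteins from the cell surface. With 15.9% of all tested genes called higher and 14.0% called lower, these counts did not set the list apart. Adam10 was inside the fold limit without fibrotic replicate 4 (0.46).

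Matrix proteins that serve as substrates showed 1 call among 16 tested genes, the TGF-beta binding protein Ltbp4 (log2 fold change -0.67, adjusted p = 0.000129, edgeR). The collagen genes Col1a1, Col1a2 and Col3a1 were not called, at log2 fold changes of -0.22, -0.11 and -0.03 (adjusted p = 0.611, 0.713 and 0.925, edgeR). Of the 16 substrates, 8 had positive log2 fold changes. The paper reports no Col1a1 difference in ethionine-treated ob/ob mice, a statement that may rest on these same animals. Fibrotic therefore serves here as a group label. No substrate was higher by edgeR, 1 was at an unadjusted p under 0.05, and DESeq2 called 1 and limma-voom 0. The proteoglycan gene Vcan, which did not pass the low-count filter with all libraries, was the gene called higher by DESeq2. It was also called higher by edgeR without FLO replicate 3. No FLO library had more than 5 Vcan counts, while the fibrotic group ranged between 4 and 19. Vcan could thus pass the filter only through the group where it is high, so being tested was not independent of the difference. Leaving out any 1 library let more genes through (13525 to 13607, against 13416). The edgeR call therefore need not reflect FLO replicate 3 itself. Of 14 tested collagen maturation enzymes, edgeR, DESeq2 and limma-voom each called 0, with 2 higher and 4 lower at an unadjusted p under 0.05. Their median log2 fold change was 0.08. The summed level of the list, given as a description, was 229 to 278 CPM in fibrotic and 281 to 324 CPM in FLO libraries. Stellate cell markers stood beside this at 385 to 532 CPM in fibrotic and 359 to 449 CPM in FLO libraries, with 1 of 12 called higher. Activated stellate markers had 1 gene higher (Spp1) and 1 lower (Acta2) of 10, and of 10 sinusoidal endothelial markers Kdr was lower, their sums being 253 to 309 against 313 to 372 CPM. Without FLO replicate 3, neither stellate list had a call. The part of these cell types in the members' values was not tested.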

How the data were processed

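The authors deposited raw whole-number counts per Ensembl gene for 12 mouse liver libraries in a single table. Per the labels, the submitters' processing notes name bcl2fastq, STAR 2.7.3a and mm10, while the annotation and the strand setting of the counting are not given in the sources used here. Reads of overlapping opposite-strand genes may therefore be mixed. Groups and replicate numbers came from sample titles. Symbols matched 51745 of 56205 identifiers, and Mmp1a (0 counts) was left out because GENCODE M21 does not list it as protein-coding. Gene positions and union exon lengths came from GENCODE M21 and promoters from RefSeq, both on GRCm38. Several members have no promoter entry.

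Tests used the robust quasi-likelihood fit of edgeR 4.0.16 (R 4.3.3), TMM factors, the filterByExpr filter and Benjamini-Hochberg adjustment over 13416 genes, with the group as the only term. A call needed an adjusted p of 0.01 or less and an absolute log2 fold change over 0.5. Intervals are 95%. Levels are CPM on TMM-scaled library sizes. Libraries of a group differed by more than sampling noise in every pair (chi-square per degree of freedom at least 10.3), so none was merged. The p-values set the group difference against the spread between libraries, in which mouse and library preparation cannot be told apart. DESeq2 1.42.0, limma-voom 3.58.1, other normalisations, filters and thresholds, a replicate block and leaving out each library were alternatives. In simulated counts over 13285 genes, the fit recovered 67.4% of 95 2-fold and 96.9% of 98 4-fold changes. Far fewer genes were changed there than were called in the data. Recovery was pooled over all levels, so it does not describe members with low counts.

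The members and gene lists were chosen with earlier results of these data known. All 32 detected members are named by role, library values are given for called genes, the Timp genes, Mmp2, Mmp9, Mmp14, Adamts2 and Adamtsl2, and called genes of the pathway lists are named. Marker genes of cell types are named in part. Mmp12 also received library values, and Plg, Vcan, Col1a1, Col1a2 and Col3a1 were named, after the data were seen. No protein sequences were used.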

Additional observations from a re-analysis of the deposited data

Results flagged for a closer look

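Among 66 groups of 6 libraries examined (33 genes, 2 groups each), 3 held a library far from the rest, where the gap to the nearest library divided by the range of the group was above Dixon's 95% critical value for 6 values. Chance flags about 1 in 20 groups. Adamts10 was lowest in fibrotic replicate 2, at 3.62 CPM with the nearest library at 7.16 CPM (gap over range 0.687). Adamts1 was highest in fibrotic replicate 4, at 23.3 CPM with the nearest at 15.7 CPM (0.637). Adamts9 was lowest in FLO replicate 1, at 1.70 CPM with the nearest at 2.23 CPM (0.637).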

How the results depend on the processing

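Of 758 values of single members under the alternatives, 733 kept their direction and side of the threshold, 2 lost the call (both Mmp24), 9 gained it and 14 changed sign, and the cause of these changes was not tested. The sign changes were in members near 0: Mmp17 (-0.0016 with RLE factors, -0.013 with upper quartile factors, and -0.17 to 0.17 without a library), Adamts2 (-0.0052 with limma-voom and -0.12 to 0.13 without a library), Adamts10 (-0.15 to 0.070 without a library), Timp2 (-0.046 to 0.21, the lowest without fibrotic replicate 5) and Adamts1 (-0.28 to 0.017, the highest without FLO replicate 2). Members called higher numbered 3 when every library had to hold 10 counts, since Mmp24 and Mmp27 were then not tested, and 4 to 6 without a library. Members called lower numbered 1 with DESeq2, 0 to 1 without a library and 4 at an adjusted p of 0.05 or less with no fold limit. Over all genes that threshold called 6994 (3662 higher and 3332 lower), and a log2 fold change limit of 1 called 1697 (907 higher and 790 lower). The Mmp9 difference was 0.95 to 1.40 without a library. Same-numbered libraries showed no clear shared deviation (correlations of -0.162 to 0.104), but such low correlations cannot exclude that the numbers pair the mice. With the replicate block 5 members were called higher and 0 lower. Every detected member passed the filter, so the test planned for detected members outside the fit had no case. Genes under 10 counts a library, such as Timp1 in part, allow only coarse limits.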
